A study of Homo sapiens with 4 samples.

Results

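The 66 genes described here encode families of secreted or membrane-bound guidance signals and their receptors. They are part of 19390 gene IDs listed in any of 4 RNA-seq libraries. They were taken by symbol: 14 Eph receptors, 8 ephrins, 20 semaphorins, 9 plexins, 3 SLIT ligands, 4 ROBO receptors and 8 genes of the netrin system (the ligands NTN1 and NTN4 and the receptors UNC5A to UNC5D, DCC and NEO1). All 66 symbols that the rule finds in the RefSeq gene table had an ID in the files, and 62 of the 66 were listed on every day. Antisense RNAs were left out.

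All libraries come from wild type H1 cells, a widely used human embryonic stem cell line, on days 0, 2, 3 and 4 of a course toward blood. Day 0 cells were undifferentiated. Cells of day 2 had spent 2 days in Custom mTeSR1 medium with activinA (40 ng/ml) and BMP4 (50 ng/ml), both inducers of mesoderm. Cells of days 3 and 4 came from the same first step and were then in Custom mTeSR1 with VEGF (40 ng/ml) and bFGF (50 ng/ml), factors for vessel and blood precursors. With 1 library per day from 1 line, differences have no replicate check and no test between days can be made. All 95% intervals below cover counting error only.

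Eph receptors are membrane tyrosine kinases that bind ephrins on the neighbouring cell, either lipid-anchored A-type or membrane-spanning B-type ephrins, and signal in both cells. Semaphorins are secreted or membrane-bound ligands of plexins, and most class 3 semaphorins also need a neuropilin. SLIT proteins are secreted ligands of ROBO receptors, and netrins bind DCC, neogenin (NEO1) and UNC5 receptors. These systems were first studied in growing axons, and they are also known for sorting cells into layers, for steering mesoderm during gastrulation and for patterning blood vessels, where ephrin-B2 marks arteries and EPHB4 marks veins.

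The libraries had totals of 5.04 to 5.49 (in units of 1e6 expected counts). Levels are given as CPM, the count scaled to a common library size, in which 1 count is 0.182 to 0.196 CPM and the floor of 3 counts is 0.545 to 0.588 CPM. The summed level of 6 pluripotency genes was 7017, 2280, 1063 and 604 CPM on days 0, 2, 3 and 4, that of 4 primitive streak genes 0.970, 492, 198 and 45.3 CPM, and that of 7 endothelial genes 252, 422, 1081 and 1554 CPM, of which KDR, which is also found in stem cells and mesoderm, made up 209, 354, 868 and 942 CPM. Lateral plate and cardiac genes (4) summed to 2.33, 327, 522 and 701 CPM, endoderm genes (4) to 4.65, 100.4, 126 and 172 CPM, neuroectoderm genes (4 found of 5) to 189.9, 223, 86.8 and 35.3 CPM, and neural crest genes (4) to 86.1, 24.3, 12.6 and 7.27 CPM. The 5 blood markers summed to 5.82, 2.16, 39.2 and 90.5 CPM, and TAL1 made up 86.3 CPM of the last. At day 4 all 5 had counts, but only 2 reached 1 CPM. GATA1 and HBE1 had none before day 4 and then 10 and 5 counts, SPI1 had at most 4, and PTPRC fell from 28 to 4. The 5 neuron markers summed to 194, 131, 198 and 216 CPM, of which the tubulin gene TUBB3 made up 182, 116, 155 and 183 CPM and STMN2 0, 6.28, 35.2 and 30.9 CPM, and the neuron-specific ELAVL3 had 2, 2, 0 and 0 counts. In such bulk samples fewer cells of a type and less RNA per cell cannot be told apart.

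Most of the 66 genes were detected on every day, at low to middle levels. At least 1 CPM was reached by 60, 61, 63 and 61 of them on days 0, 2, 3 and 4. That is 90.9, 92.4, 95.5 and 92.4%, beside 74.8, 75.2, 76.3 and 76.4% of all 19390 gene IDs. At least 10 CPM was reached by 30, 44, 47 and 43 of the 66, which was not counted over all genes. Their summed level was 2564 CPM at day 0, 4001 at day 2, 4050 at day 3 and 3100 at day 4. The median FPKM (the deposited level scaled for transcript length and depth, used here to compare different genes) was 1.90, 4.77, 5.43 and 4.49, below the 7.92, 8.24, 8.36 and 8.14 of all genes with at least 1 CPM.

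The rule of size used below calls a gene past 4-fold when its log2(CPM + 1) moved by 2 or more between libraries, provided that 1 of them had 1 CPM or more. After the activin A and BMP4 step, 12 of 63 measured members were higher at day 2 than at day 0, which is 19.0% beside 4.63% of all 15379 genes so measured. None of the members was lower, beside 1.93% of all genes. Between day 2 and day 4, the VEGF and bFGF step, 2 of 63 members were higher (3.17% beside a background of 2.32%) and 4 were lower (6.35% beside 1.4%). Over the whole course, 17 of 64 were higher at day 4 than at day 0 (26.6% beside 6.27%) and 4 were lower (6.25% beside 3.44%). The 3 comparisons share libraries, so their counts are not independent.

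The median log2 difference over measured members was 0.47 at day 2 against day 0, -0.04 at day 4 against day 2 and 0.61 at day 4 against day 0, where the medians over all genes were -0.00, 0.02 and 0.03. At the smaller threshold of 2-fold, 22 members were higher and 7 lower at day 2 than at day 0 (background 12.9% and 8.81%), and 12 were higher and 15 lower at day 4 than at day 2 (background 8.18% and 7.6%). At day 4 against day 0 they were 24 higher and 11 lower (16.1% and 11.9%). Over single days, 10 were higher and 6 lower at day 3 than at day 2 (5.82% and 3.51%), and 1 was higher and 8 lower at day 4 than at day 3 (2.96% and 4.25%), where no member passed 4-fold in either direction (0.377% and 0.228%). The second step thus held members moving both ways. Of the 12 members higher at day 2, NTN4 and EPHB3 were under 1 CPM at day 0 and passed the minimum through day 2 alone.

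Some calls rest on low levels or on the scale. On deposited FPKM, with a pseudocount and a minimum of 1 FPKM, the calls of NTN1, SEMA3E and SLIT2 at day 2 against day 0 ended, as did those of DCC, EPHA7, NTN1, SEMA5B and UNC5D at day 4 against day 2 and those of EFNB1, EPHA2, EPHA4, EPHA6, ROBO2, SEMA3D, SEMA5B and SLIT3 at day 4 against day 0. With a pseudocount of 5 CPM, which shrinks low genes most, the calls of NTN1 and SEMA3E at day 2 ended, those of DCC, NTN1, SEMA5B and UNC5D at day 4 against day 2, and those of EFNA1, EFNB1, EPHA2, EPHA6, NTN4, SEMA3D, SEMA5B, SEMA6B and SLIT3 at day 4 against day 0. No direction turned in any of these.

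**Figure D1:**
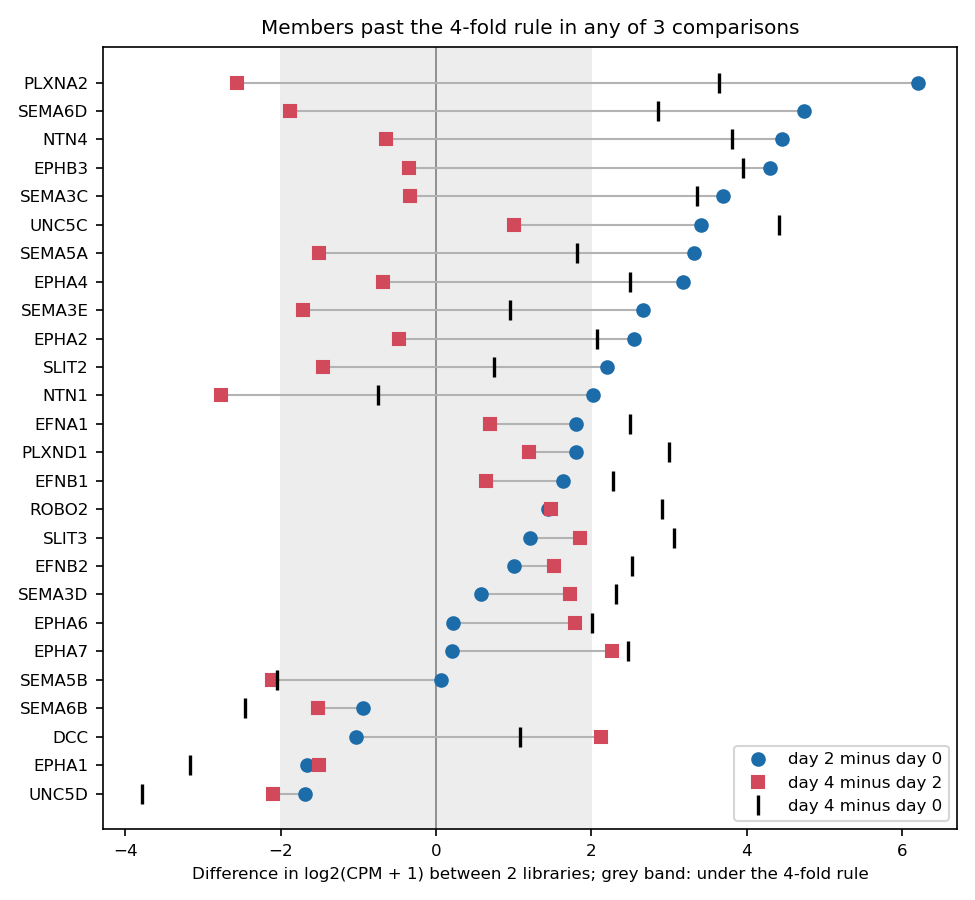
Differences in log2(CPM + 1) between pairs of libraries (x axis) for the 26 members past the 4-fold rule in any of the 3 comparisons (y axis). Circles are day 2 minus day 0, squares day 4 minus day 2, bars day 4 minus day 0, and the grey band holds differences under the rule. PLXNA2 has the largest increase to day 2, at 6.21, and UNC5D the largest decrease over the course, at -3.79.

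The courses differed in timing: PLXNA2 was highest at day 2 alone, EPHA2 was high from day 2 on, EFNB2 rose mainly after day 2, and UNC5D was lower on each later day. Of the 52 members with at least 10 CPM on any day, 7 were highest on day 0, 17 on day 2, 16 on day 3 and 12 on day 4. In 6, 8, 7 and 4 of these, the highest day stood apart from all other days beyond counting error. The split by highest day was not counted over all genes, so it is not read as a trait of these families. Promoter sequence is shown for 3 members high at day 2 and for EFNB2, because the results below turn on these genes and the 250 bases before their RefSeq start held no exon of GENCODE v29. The windows, from RefSeq on GRCh38.p14, are chr1:208244385-208244634 on the minus strand for PLXNA2, chr15:47183839-47184088 on the plus strand for SEMA6D, chr4:20251655-20251904 on the plus strand for SLIT2 and chr13:106535663-106535912 on the minus strand for EFNB2. Each is written 5′ to 3′ along its gene, and capitals mark matches to the motifs searched.
PLXNA2: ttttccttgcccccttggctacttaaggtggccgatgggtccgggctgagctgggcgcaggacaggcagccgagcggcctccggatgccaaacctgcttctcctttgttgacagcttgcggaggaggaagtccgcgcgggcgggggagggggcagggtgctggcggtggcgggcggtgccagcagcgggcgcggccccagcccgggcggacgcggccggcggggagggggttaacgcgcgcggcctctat
SEMA6D: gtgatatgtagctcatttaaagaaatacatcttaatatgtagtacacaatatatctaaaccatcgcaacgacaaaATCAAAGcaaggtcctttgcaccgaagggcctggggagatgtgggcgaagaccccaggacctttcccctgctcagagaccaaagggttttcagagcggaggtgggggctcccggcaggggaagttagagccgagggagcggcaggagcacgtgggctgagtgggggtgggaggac
SLIT2: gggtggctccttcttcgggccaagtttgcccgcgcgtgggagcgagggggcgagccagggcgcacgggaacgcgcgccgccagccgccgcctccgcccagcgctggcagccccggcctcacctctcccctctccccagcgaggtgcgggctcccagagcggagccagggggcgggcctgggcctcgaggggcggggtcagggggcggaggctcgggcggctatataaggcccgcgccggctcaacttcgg
EFNB2: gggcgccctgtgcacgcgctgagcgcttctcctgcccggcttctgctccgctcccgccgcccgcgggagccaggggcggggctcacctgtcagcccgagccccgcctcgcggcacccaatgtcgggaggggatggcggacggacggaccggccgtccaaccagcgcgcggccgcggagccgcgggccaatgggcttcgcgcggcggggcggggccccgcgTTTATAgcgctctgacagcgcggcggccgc

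Both strands of each window were searched for 7 motifs. The T-box motif was AGGTGTGA. That of FOXH1, a partner of activin signalling, was AATNCACA. The motif of the Wnt effectors TCF and LEF was CTTTGAT. That of GATA factors was AGATAA. The ETS motif, bound by many endothelial regulators, was CCGGAAGT. The SMAD palindrome was GTCTAGAC. Of the TATA box only the form TATAAA was searched, so other forms were not marked. None of these motifs contains another. Of the 66 members 58 had a promoter in the table. CTTTGAT was found in 1 of them, SEMA6D, on the strand opposite to the gene, and it occurs in 2.28% of all 27305 promoter windows of this length. TATAAA was found in EFNB2 alone, also on the opposite strand, against 11.1% of all windows. AGATAA was found in 5 member windows (EFNA3, EPHA3, ROBO4, SEMA3E and SEMA5B), which is 8.62% beside 9.37% of all, and the other 4 motifs in none, where 0.176 to 3.64% of all windows hold them. The member windows were rich in G and C, with a median of 65.0% and 17 CG dinucleotides against 58.0% and 11 over all windows. A match is a description of letters only, and its absence says only that these letters are not in the window.

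Among Eph receptors, the leading transcript passed from EPHA1 at day 0 to EPHA2 from day 2 on. EPHA1 (gene ID 2041) measured 122.8, 38.1, 31.1 and 12.7 CPM on days 0, 2, 3 and 4. EPHA2 (gene ID 1969), a receptor for ephrin-A1 that is common in epithelial cells, measured 43.1, 257, 256 and 185 CPM. EPHA1 was thus highest at day 0 and lowest at day 4, 9.65-fold lower (7.53 to 12.5), whereas EPHA2 was 5.97-fold higher at day 2 than at day 0 (5.17 to 6.91) and stayed within 1.39-fold of that level. By FPKM, EPHA1 was 39.8% of all Eph receptor transcript at day 0 and EPHA2 44.0, 43.3 and 35.7% on days 2, 3 and 4. The antisense RNA EPHA1-AS1 was listed at 6.21, 2.75, 5.41 and 3.27 CPM, and reads of the pair cannot be told apart if strand was not used in counting, which is not given in the sources used here.

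EPHA4 and EPHB3 also rose at day 2, both from low levels. EPHA4 (gene ID 2043), a receptor that binds ephrins of both types, measured 8.34, 83.8, 61.1 and 52.0 CPM, 10.04-fold higher at day 2 than at day 0 (7.33 to 14.1). EPHB3 (gene ID 2049), a receptor for B-type ephrins, had 4 counts at day 0, or 0.776 CPM, and then 33.9, 38.3 and 26.5 CPM, 43.8-fold higher at day 2 (16.8 to 162). Both remained above their day 0 level on all later days.

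EPHA7 took another course. It measured 12.6 and 14.7 CPM on days 0 and 2, which do not differ beyond counting error, then 37.7 and 74.7 CPM on days 3 and 4. EPHA7 (gene ID 2045) was 5.08-fold higher at day 4 than at day 2 (3.96 to 6.58) and is 1 of the 2 members past the rule upward in that comparison. EPHA6 was higher at day 4 as well, at 0.194, 0.392, 1.93 and 3.82 CPM, but on only 1 count at day 0 and 21 at day 4 (19.7-fold, 3.17 to 814).

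EPHB4 (gene ID 2050), the receptor for ephrin-B2 that marks veins, was high throughout, at 124, 141, 158 and 172 CPM. It differed by 1.39-fold between the first and last library (1.26 to 1.54). EPHB2 measured 20.0, 39.2, 33.2 and 42.5 CPM and was 2.13-fold higher at day 4 than at day 0 (1.68 to 2.71). EPHB6, a receptor without kinase activity, measured 18.6, 20.6, 13.3 and 7.27 CPM and ended 2.56-fold below day 0 (1.75 to 3.80), so the B class held members going either way. EPHB1 dipped, at 7.76, 2.55, 10.8 and 9.45 CPM, 3.04-fold lower at day 2 than at day 0 (1.59 to 6.20) and 4.24-fold higher at day 3 than at day 2 (2.29 to 8.46). The remaining receptors EPHA3, EPHA5, EPHA8 and EPHA10 stayed at or under 3.30 CPM on every day.

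The ephrins together were at 31.4 FPKM at day 0 against 93.4 FPKM for their receptors, and EFNB2 led them from day 2 on. Summed over 8 genes, ephrins stood at 90.2, 170, 359 and 332 CPM. EFNB2 (gene ID 1948), encoding ephrin-B2, measured 38.4, 78.1, 248 and 225 CPM. It was 2.03-fold higher at day 2 than at day 0 (1.71 to 2.42) and a further 3.18-fold higher at day 3 than at day 2 (2.84 to 3.56). At day 4 it was 5.86-fold above day 0 (5.04 to 6.84), and its share of ephrin FPKM had gone from 28.2 to 54.6%. EFNB2 and EPHB4 stood at 8.87 and 28.9 FPKM on day 0 and at 50.8 and 39.3 FPKM on day 4, so ligand and receptor changed order.

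EFNB1 followed a similar but lower course, at 5.24, 18.4, 31.5 and 29.3 CPM, and was 5.59-fold higher at day 4 than at day 0 (3.70 to 8.74). EFNB3 measured 16.1, 15.5, 23.6 and 25.6 CPM, 1.59-fold higher at day 4 (1.21 to 2.11). All 3 B-type ephrins were therefore higher at day 4 than at day 0 beyond counting error, 2 of them past the 4-fold rule.

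A-type ephrins each stayed at or under 29.6 CPM on every day. By FPKM, A-type and B-type ephrins summed to 15.9 and 15.5 at day 0 and to 25.6 and 67.5 at day 4. EFNA4 led all ephrins at day 0, with 31.1% of their FPKM. EFNA1 (gene ID 1942), a ligand of EPHA2, measured 1.36, 7.26, 12.0 and 12.4 CPM and was 9.10-fold higher at day 4 than at day 0 (4.19 to 23.5). EFNA2 measured 2.13, 11.0, 9.28 and 9.45 CPM, and EFNA5 11.4, 29.6, 23.6 and 17.3 CPM with its maximum at day 2. EFNA1 and EFNA2 were thus above day 0 beyond counting error at days 2 and 4, short of the rule except EFNA1 at day 4, while EFNA5 had returned to 1.51-fold of day 0 by day 4 (1.08 to 2.13). EFNA4 measured 12.0, 8.44, 9.66 and 11.6 CPM, and EFNA3 3.49 CPM or less, with intervals that include no change between day 4 and day 0. In the RefSeq table EFNA4, EFNA3 and EFNA1 are direct neighbours with no protein-coding gene between them, so of 3 adjacent genes 1 was past the rule and 2 were not.

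**Figure D2:**
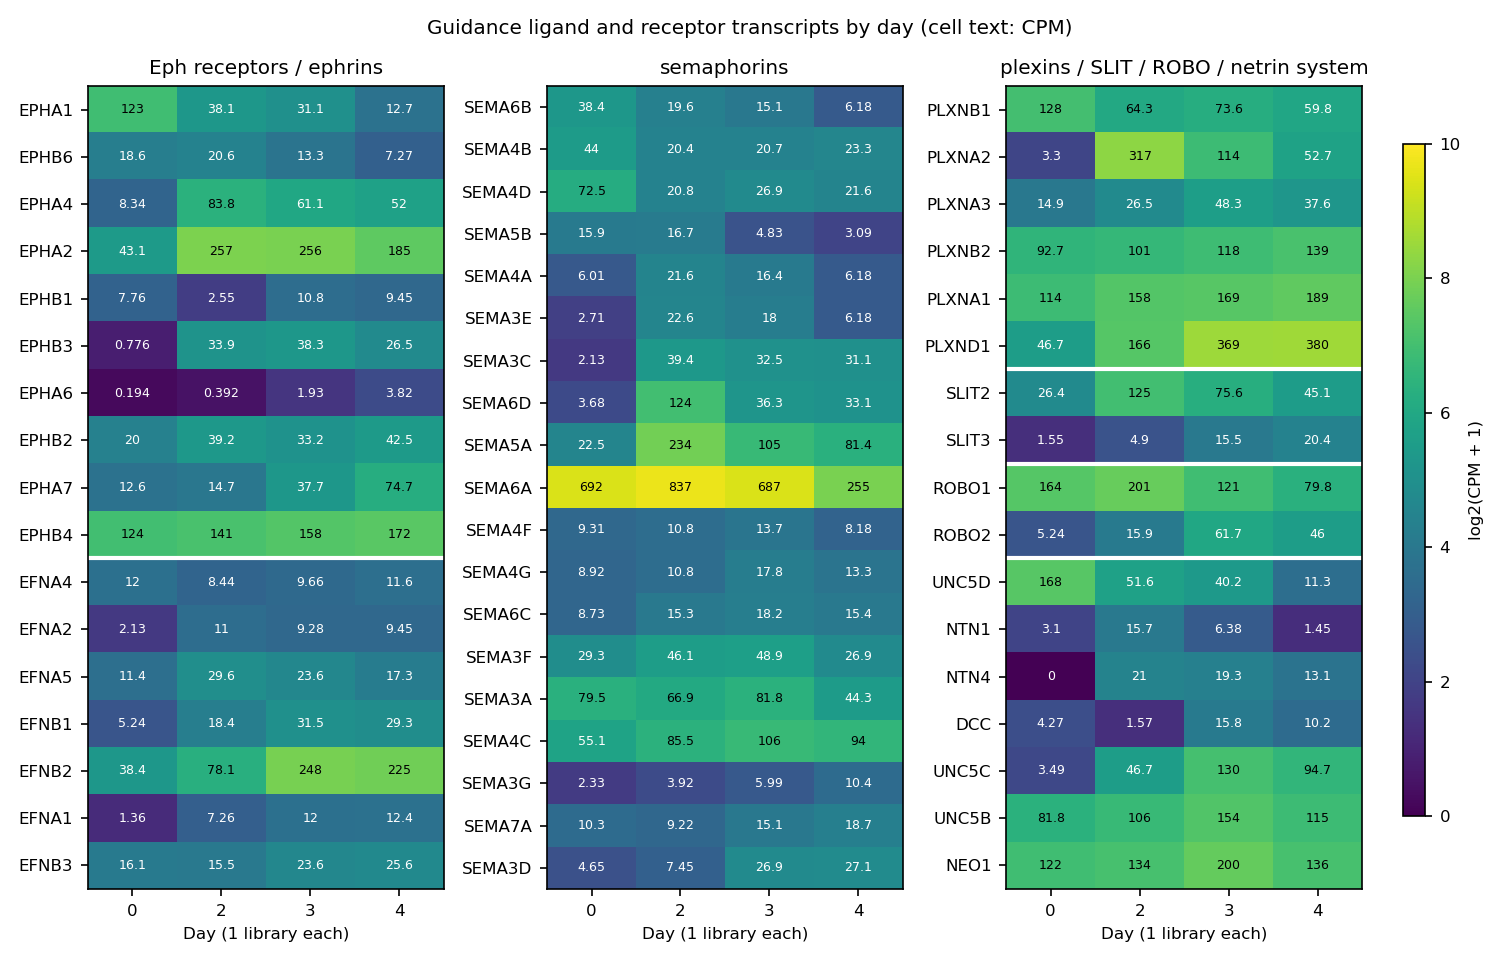
Levels of the 53 members with at least 10 CPM on any day or past the 4-fold rule, as log2(CPM + 1) by colour and CPM by number (rows are genes, columns the 4 days with 1 library each). Within each family genes are ordered by the day of their highest level. The SEMA6A row dims at day 4, from 687 to 255 CPM, and the EFNB2 row brightens at day 3, from 78.1 to 248 CPM.

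Semaphorins had the highest summed FPKM of the 7 families on every day, and SEMA6A had the largest share of it. SEMA6A (gene ID 57556), a membrane-spanning ligand of PLXNA2 and PLXNA4, measured 692, 837, 687 and 255 CPM. Its level was above that of 96.8% of listed genes at day 0 by FPKM and 89.5% at day 4. It was 2.70-fold lower at day 4 than at day 3 (2.53 to 2.87), most of its decrease falling in that single day, and its share of semaphorin FPKM went from 51.7% at day 0 to 27.4% at day 4. The summed semaphorin level was 1110, 1617, 1302 and 729 CPM, lower at day 4 than at day 0.

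SEMA6D, SEMA5A, SEMA3C and SEMA3E were the semaphorins past the rule at day 2. SEMA6D (gene ID 80031), whose promoter holds the CTTTGAT match above, measured 3.68, 124, 36.3 and 33.1 CPM, and was 33.8-fold higher at day 2 than at day 0 (21.4 to 56.4). SEMA5A (gene ID 9037), a semaphorin with thrombospondin repeats, measured 22.5, 234, 105 and 81.4 CPM, 10.4-fold higher at day 2 (8.58 to 12.7). In both, day 2 was the peak and more than the later days by at least 2.23-fold. SEMA6D was 3.42-fold lower at day 3 than at day 2 (2.90 to 4.05) and SEMA5A 2.23-fold lower (2.01 to 2.47). SEMA3C (gene ID 10512), a secreted ligand needed in the outflow tract of the heart, measured 2.13, 39.4, 32.5 and 31.1 CPM, 18.5-fold higher at day 2 (10.1 to 37.6), and stayed up. SEMA3E (gene ID 9723), a ligand that binds PLXND1 directly, measured 2.72, 22.6, 18.0 and 6.18 CPM, and had lost most of its increase by day 4.

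The class 3 genes SEMA3C, SEMA3E, SEMA3A and SEMA3D lie close together: RefSeq places SEMA3E, SEMA3A and SEMA3D side by side, and 3 other protein-coding genes between SEMA3C and SEMA3E. Their courses differed. SEMA3A, the best known collapsing factor for growth cones, measured 79.5, 66.9, 81.8 and 44.4 CPM and ended 1.79-fold below day 0 (1.53 to 2.11). SEMA3D measured 4.65, 7.45, 26.9 and 27.1 CPM, 3.60-fold higher at day 3 than at day 2 (2.50 to 5.31). So within this group of neighbours 1 gene stayed up from day 2, another was up on days 2 and 3, another was higher from day 3, and SEMA3A was lower at the end. Of the other class 3 genes, SEMA3F measured 29.3, 46.1, 48.9 and 26.9 CPM, and SEMA3G 2.33, 3.92, 5.99 and 10.4 CPM, 4.45-fold higher at day 4 than at day 0 (2.36 to 9.12) but short of the rule on the log2(CPM + 1) scale. SEMA3B did not exceed 5.80 CPM.

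Class 4 semaphorins, ligands of B-type plexins among others, exchanged their leading member. SEMA4D (gene ID 10507), the ligand of PLXNB1, measured 72.5, 20.8, 26.9 and 21.6 CPM, 3.49-fold lower at day 2 than at day 0 (2.80 to 4.37). SEMA4B measured 44.0, 20.4, 20.7 and 23.3 CPM, and SEMA4C 55.1, 85.5, 106 and 94.0 CPM. The first pair was lower from day 2 on and SEMA4C higher, so that SEMA4C made up 60.1% of class 4 FPKM at day 4, where SEMA4D had led at day 0 with 32.7%. SEMA4A was above its day 0 and day 4 levels in between, at 6.01, 21.6, 16.4 and 6.18 CPM. SEMA4F (9.31, 10.8, 13.7 and 8.18 CPM) and SEMA4G (8.92, 10.8, 17.8 and 13.3 CPM) differed less.

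SEMA5B and SEMA6B were the semaphorins past the rule in the other direction at day 4. SEMA5B measured 15.9, 16.7, 4.83 and 3.09 CPM, 5.40-fold lower at day 4 than at day 2 (3.18 to 9.69). SEMA6B measured 38.4, 19.6, 15.1 and 6.18 CPM, 6.21-fold lower at day 4 than at day 0 (4.30 to 9.23). Between day 0 and day 4 the paralogs SEMA5A and SEMA5B went opposite ways: at day 0 SEMA5B held 63.8% of class 5 FPKM, and at day 4 SEMA5A held 91.0%. From day 2 to day 4 both were lower, SEMA5A going from 234 to 81.4 CPM. SEMA6C measured 8.73, 15.3, 18.2 and 15.4 CPM. SEMA7A, a lipid-anchored semaphorin that binds PLXNC1, measured 10.3, 9.22, 15.1 and 18.7 CPM, while PLXNC1 itself was at 5.62, 8.63, 2.32 and 2.73 CPM.

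**Figure D3:**
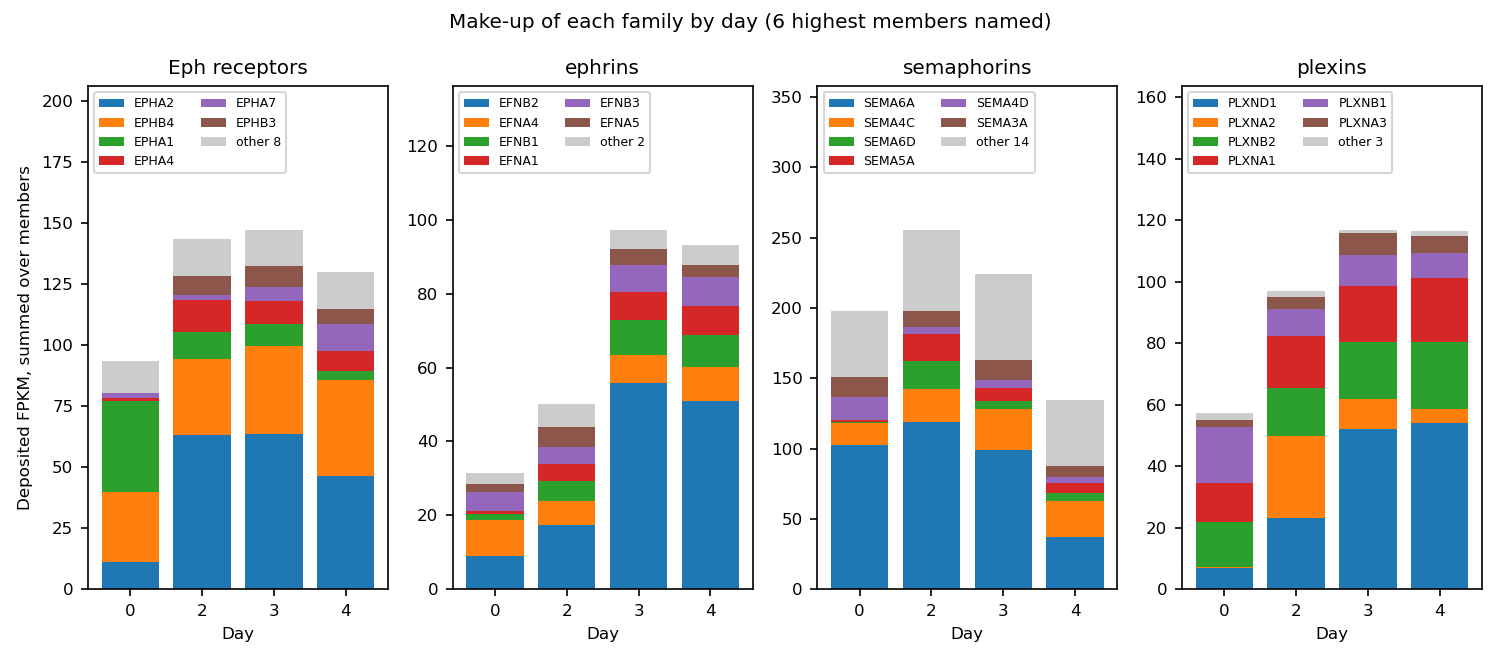
Summed deposited FPKM of Eph receptors, ephrins, semaphorins and plexins (y axis) on each day (x axis, 1 library each), with the 6 members of highest FPKM in colour and the rest in grey. EPHA1 gives way to EPHA2, SEMA6A shrinks at day 4, and the plexin bar passes from PLXNB1 at day 0 over PLXNA2 at day 2 to PLXND1 on days 3 and 4.

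The plexins, the receptors of semaphorins, had a different leading member at each stage. PLXNA2 (gene ID 5362), the receptor for SEMA6A and other class 6 semaphorins, measured 3.30, 317, 114 and 52.7 CPM. That is 17 counts at day 0 against 1615 at day 2, 96.1-fold higher (59.8 to 165), the largest difference of any member with counts in both libraries. It was then 6.01-fold lower at day 4 than at day 2 (5.30 to 6.84), past the rule in that direction too, but still 16.0-fold above day 0 (9.81 to 27.8). Its ligand SEMA6A was high already at day 0, so at that time the ligand was at 102 FPKM and the receptor at 0.290 FPKM.

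PLXND1 (gene ID 23129), the receptor for SEMA3E that is known from endothelium, measured 46.7, 166, 369 and 380 CPM. It was 3.55-fold higher at day 2 than at day 0 (3.07 to 4.11), 2.23-fold higher at day 3 than at day 2 (2.05 to 2.42), and 8.13-fold above day 0 at day 4 (7.11 to 9.33). By FPKM it was 46.4% of plexin transcript at day 4. SEMA3E and PLXND1 were both higher at day 2, but parted later: the ligand was 3.65-fold lower at day 4 than at day 2 (2.47 to 5.52) and the receptor 2.29-fold higher (2.12 to 2.49).

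PLXNB1 (gene ID 5364), the leading plexin at day 0 with 31.8% of plexin FPKM, measured 128, 64.3, 73.6 and 59.8 CPM. Its level and that of its ligand SEMA4D were lower on every later day than at day 0. PLXNB2 measured 92.7, 101, 118 and 139 CPM, and PLXNA1 114, 158, 169 and 189 CPM, both highest at day 4 and apart from the other days beyond counting error, with PLXNA1 1.66-fold above day 0 (1.502 to 1.84). PLXNA3 measured 14.9, 26.5, 48.3 and 37.6 CPM. PLXNA4 and PLXNB3 were at or under 4.65 CPM on every day.

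Neuropilins, the partners of plexins for class 3 semaphorins and of VEGF receptors for VEGF, were also higher from day 2 on. NRP1 measured 3.10, 67.7, 142 and 148 CPM, and NRP2 36.5, 305, 409 and 314 CPM. They were 21.8-fold (13.2 to 38.6) and 8.36-fold (7.18 to 9.77) higher at day 2 than at day 0. Of the 16 coreceptors and effectors of semaphorins in a list that includes them, all were measured at day 2, 3 were past the rule upward and 1 downward against day 0, beside 4.63% and 1.93% of all genes. The third was MICAL2, an actin-oxidising enzyme, at 1.55, 9.42, 19.3 and 36.0 CPM. The decrease was in DPYSL3, a cytoskeletal protein of the collapsin response family, at 1002, 87.3, 142 and 189 CPM, 11.5-fold lower at day 2 (10.4 to 12.7). The median log2 difference of that list was 0.31 at day 2 and -0.04 at day 4, both against day 0.

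**Figure D4:**
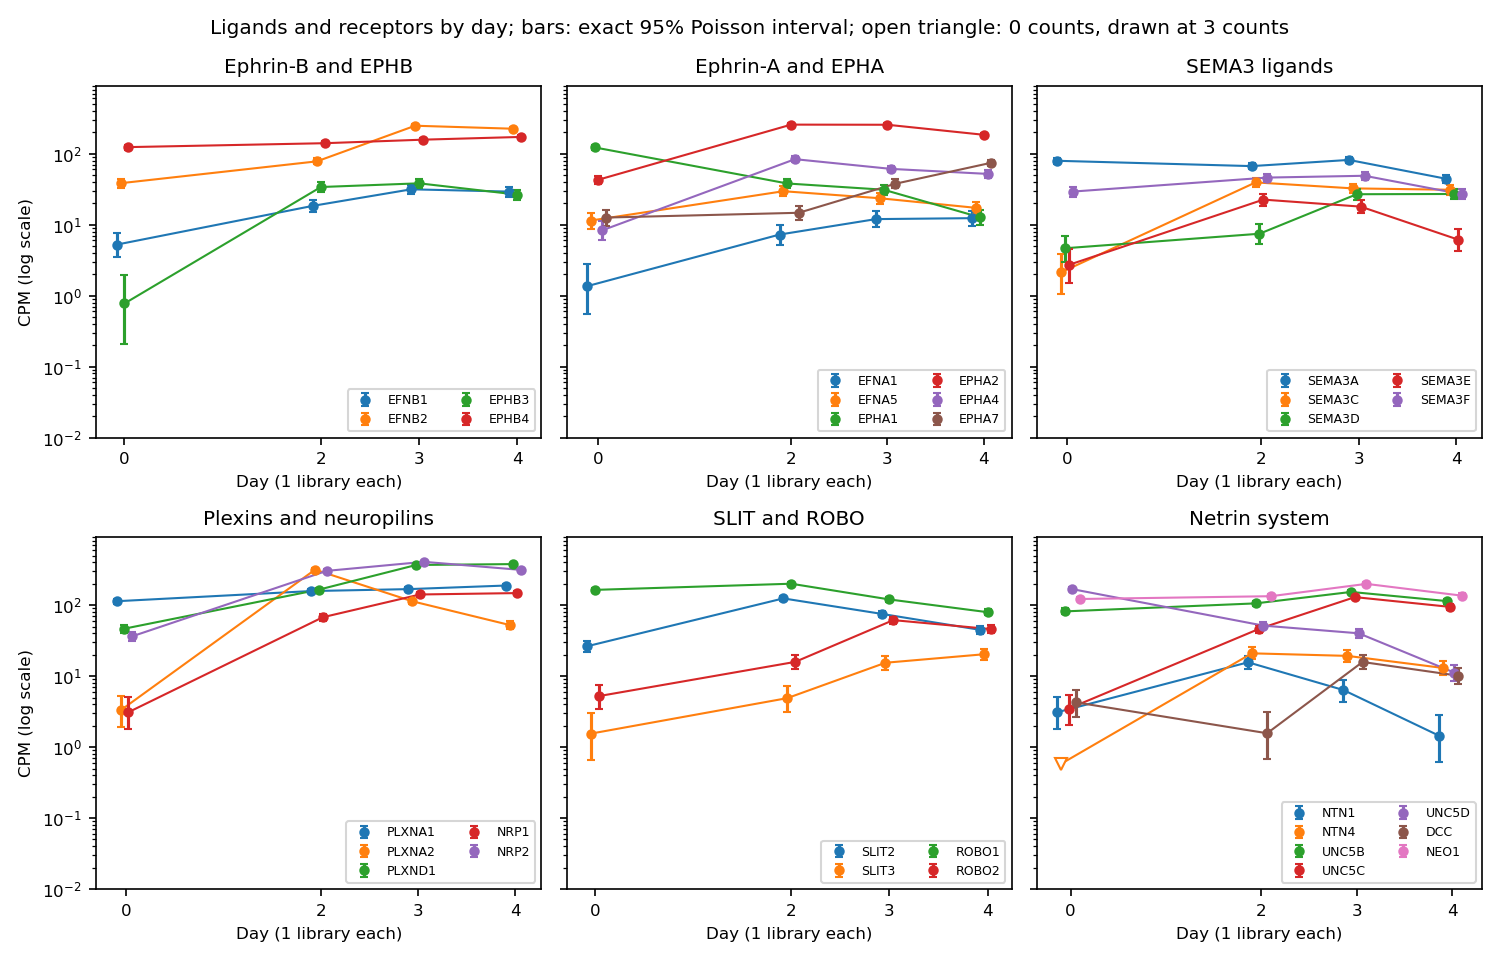
Levels of ligands and receptors in CPM (y axis, log scale) by day (x axis, 1 library each), with exact 95% Poisson intervals, and 0 counts drawn as an open triangle at 3 counts. EFNB2 steps up at day 3 while EPHB4 stays between 124 and 172 CPM, PLXNA2 peaks at day 2 while PLXND1 keeps its level to day 4, and UNC5C goes up as UNC5D goes down. Heights of different genes are not scaled for length.

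In the SLIT and ROBO system, SLIT2 and ROBO1 were highest at day 2, and SLIT3 and ROBO2 highest later. SLIT2 (gene ID 9353) measured 26.4, 125, 75.6 and 45.1 CPM, 4.73-fold higher at day 2 than at day 0 (3.93 to 5.74). ROBO1 (gene ID 6091) measured 164, 201, 121 and 79.8 CPM. SLIT2 remained above day 0 at day 4, by 1.71-fold (1.38 to 2.12), whereas ROBO1 ended 2.06-fold below it (1.84 to 2.32). SLIT3 (gene ID 6586) measured 1.55, 4.90, 15.5 and 20.4 CPM, 13.1-fold higher at day 4 than at day 0 (6.43 to 31.1), and ROBO2 (gene ID 6092) 5.24, 15.9, 61.7 and 46.0 CPM, 8.78-fold higher (5.89 to 13.6).

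ROBO1 and ROBO2 are direct neighbours in RefSeq, and the first was 94.3% of ROBO FPKM at day 0 but 63.0% at day 4. ROBO4, the endothelial member of the family, had 0 counts on days 0, 2 and 3 and 8 counts at day 4 (1.45 CPM, at least 2.50-fold higher than at day 0), while the endothelial markers summed to 1554 CPM. ROBO3 stayed at or under 5.30 CPM and SLIT1 at or under 1.74 CPM.

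In the netrin system, the leading UNC5 transcript changed from UNC5D to UNC5B, and UNC5C rose. UNC5D (gene ID 137970) measured 168, 51.6, 40.2 and 11.3 CPM, 14.9-fold lower at day 4 than at day 0 (11.5 to 19.7), the largest decrease of any member on the log2(CPM + 1) scale. UNC5C (gene ID 8633) measured 3.49, 46.7, 130 and 94.7 CPM, 27.1-fold higher at day 4 than at day 0 (17.0 to 46.1). By FPKM, UNC5C was at 0.360, 4.59, 13.0 and 9.49 and UNC5D at 23.4, 6.88, 5.44 and 1.53, so their order had changed by day 3. UNC5B, the UNC5 receptor known from endothelium, was present throughout at 81.8, 106, 154 and 115 CPM. UNC5D held 64.5% of UNC5 FPKM at day 0, and UNC5B 56.5, 54.4 and 59.9% on days 2, 3 and 4. UNC5A had 10, 1, 0 and 0 counts.

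The 2 netrins summed to 0.530, 8.21, 6.33 and 3.83 FPKM, below the 36.3, 26.5, 40.4 and 27.5 FPKM of the UNC5 receptors. NTN4 (gene ID 59277), a netrin related to laminins, had 0 counts at day 0 and then measured 21.0, 19.3 and 13.1 CPM, at least 36.1-fold higher at day 2. NTN1 (gene ID 9423) measured 3.10, 15.7, 6.38 and 1.45 CPM: it was 5.06-fold higher at day 2 than at day 0 (2.93 to 9.27) and 10.8-fold lower at day 4 than at day 2 (5.22 to 25.9). The call for NTN1 at day 2 lies just inside the rule, at a log2 difference of 2.02, and ended on unscaled library totals, at 1.97. By FPKM, NTN4 was 93.7% of the 2 netrins at day 4.

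DCC (gene ID 1630), the classical netrin receptor, had a minimum at day 2, at 4.27, 1.57, 15.9 and 10.2 CPM. It was 10.1-fold higher at day 3 than at day 2 (4.89 to 24.2), from 8 to 82 counts, and is, with EPHA7, the other member past the rule upward at day 4 against day 2. No further member passed the rule between days 2 and 3 (1 of 63 upward and 0 downward, beside 1.32% and 0.406% of all genes). NEO1, a DCC relative that also binds RGM proteins, measured 122, 134, 200 and 136 CPM, with day 3 apart from the others beyond counting error. UNC5B and UNC5C had their maximum at day 3 as well.

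Other genes of these pathways were counted by the same rule. Of 18 Eph effectors and proteases, 1 of 17 measured was past it upward and 0 downward at day 2 against day 0, beside 4.63% and 1.93% of all genes. It was KALRN, at 5.82, 32.4, 33.6 and 32.0 CPM. At day 4 against day 0, 2 of 18 were past it upward and 1 downward, beside 6.27% and 3.44% of all genes: KALRN, the kinase gene SRC, at 33.9, 139, 178 and 191 CPM, and downward ARHGEF5, at 61.1, 29.6, 27.4 and 10.5 CPM. At day 4 against day 2, 1 of 18 passed upward and 0 downward, beside 2.32% and 1.4% of all genes. It was VAV3, an exchange factor, at 19.0, 4.90, 13.5 and 24.5 CPM. ADAM10, a protease that cuts ephrins, measured 153, 245, 257 and 206 CPM. Of 20 partners of SLIT, ROBO and netrin receptors, 15 were measured at day 2. FLRT2 and FLRT3, membrane proteins that bind UNC5 receptors, were past the rule upward and no partner downward, beside 4.63% and 1.93% of all genes. FLRT2 measured 9.31, 126, 175 and 165 CPM, and FLRT3 2.13, 55.5, 111 and 107 CPM, 13.5-fold (10.1 to 18.5) and 26.0-fold (14.3 to 52.7) higher at day 2. At day 4 against day 0, 2 of 15 were past the rule upward (FLRT2 and FLRT3) and 2 downward, beside 6.27% and 3.44% of all genes. RGMA, a ligand of NEO1, was 11.4-fold lower (6.56 to 21.3) and DRAXIN, a netrin antagonist, 16.5-fold lower (7.32 to 46.2). At day 4 against day 2, 1 of 15, DSCAM, was past the rule upward and 1, NTNG1, downward, beside 2.32% and 1.4% of all genes, and both were under 10 CPM on every day. FLRT2 and FLRT3, like UNC5C, were above day 0 on each later day, and RGMA and DRAXIN, like UNC5D, were lower on each later day than on the day before. In 2 of these steps the interval includes no change: RGMA from day 2 to day 3 (1.47-fold lower, 0.894 to 2.45) and DRAXIN from day 3 to day 4 (2.30-fold lower, 0.817 to 7.39).

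Several markers moved with these members. The sums of endothelial, of lateral plate and cardiac, and of endoderm markers were each lowest at day 0 and highest at day 4. So were PLXND1, SLIT3, EPHB4 and NRP1, though their days 3 and 4 did not differ beyond counting error. Not all markers in these lists did so. SOX17 measured 90.4, 89.1 and 55.3 CPM on days 2, 3 and 4, ISL1 and TBX20 were highest at day 3, and AFP, CDH5 and ERG were lowest at day 2. At day 4 HAND1 made up 594 CPM of the lateral plate and cardiac sum and APOA1 79.6 CPM of the endoderm sum. The sums of streak and of neuroectoderm markers both peaked at day 2, as did PLXNA2, SEMA6D, SEMA5A, SLIT2 and NTN1. Within the neuroectoderm sum, OTX2 went from 34.7 CPM at day 0 to 87.1 at day 2, while ZIC2 went from 153 to 131. PAX6 also peaked at day 2, at 4.12 CPM, and LHX2 had at most 2 counts. The sums of pluripotency and of neural crest markers both declined on each day, as did EPHA1, UNC5D and SEMA6B. For EPHA1, however, days 2 and 3 did not differ beyond counting error (1.22-fold, 0.987 to 1.52). The intervals of SEMA6B on days 2 and 3 overlap, at 16.0 to 23.9 and 11.9 to 18.8 CPM. The part of these cell types in the members' levels was not tested. Of the neuron markers, 2, 4, 3 and 3 of 5 had at least 1 CPM. ELAVL3 had 2, 2, 0 and 0 counts, ELAVL4 4, 14, 1 and 0, and DCX 57, 29, 39 and 11. STMN2 had 0, 32, 182 and 170 counts and TUBB3 937, 593, 803 and 1007. DCC, EPHA7 and ROBO2 had 56, 411 and 253 counts at day 4, and the part of neurons in these was not tested.

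Of the 62 members with a listed transcript length in every library, 39 had identical lengths in all of them. Of the members with at least 10 CPM, 3 differed by more than 5% between libraries. These were SEMA3E, at 5993, 6629, 6321 and 6577 base pairs, SEMA4A, at 3260, 3239, 3251 and 3089, and SEMA4G, at 4415, 4029, 4117 and 4200. For the genes that carry the results above, such as PLXNA2, EFNB2, PLXND1, EPHA2 and UNC5C, the length was constant, so CPM and FPKM differ between days only in scaling.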

How the data were processed

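Total RNA was harvested with Trizol for Illumina TruSeq libraries, per the labels' protocols. The submitters' processing notes name BWA, Bowtie, RSEM and hg19, and the series' design text also TopHat and Cufflinks; which made the values is not stated. Per the file headers, the deposited expected counts were estimated by the authors per Entrez gene, beside a transcript length and FPKM (deposited, scaled for length and depth by the authors). Expected counts were rounded to whole numbers, and genes missing from 1 file were set to 0 there. RefSeq (GRCh38.p14) named 19273 of 19390 IDs, older symbols through its synonyms.

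CPM used TMM factors (1.02, 0.981, 0.995 and 1.00) from edgeR 4.0.16 (R 4.3.3); other steps ran in Python 3.11.15 with scipy 1.17.1, pandas 2.3.3, numpy 2.4.6 and matplotlib 3.10.9. Folds are CPM ratios with exact conditional binomial 95% intervals, or bounds against 3 counts where 1 library had 0; levels in the plots have exact Poisson intervals. The 4-fold rule used a pseudocount of 1 CPM and was tried on simulated counts that held counting error alone. That trial cannot show how the rule behaves under spread between cultures, which was not simulated. Values are given for the 53 members with at least 10 CPM on any day or past the 4-fold rule; the other 13 reached at most 8.63 CPM. Members, lists and settings were chosen with earlier results of these data known. Alternatives changed the pseudocount, scaling, minimum, threshold and unit.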

Additional observations from a re-analysis of the deposited data

How the results depend on the processing

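No paired analysis was possible because each day is 1 library. For the counts of members past 4-fold, the values at day 2 against day 0 were 12 higher and 0 lower, at day 4 against day 2 they were 2 and 4, and at day 4 against day 0 they were 17 and 4. With a pseudocount of 0.1 CPM, 1 member was lower at day 2 against day 0 and 5 were higher at day 4 against day 2. With a pseudocount of 5 CPM, 1 was higher and 1 lower at day 4 against day 2, and 10 higher and 2 lower at day 4 against day 0. On deposited FPKM, 0 were higher and 1 lower at day 4 against day 2, and 10 higher at day 4 against day 0. At a threshold of 2-fold the counts were 22 and 7 at day 2 against day 0, 12 and 15 at day 4 against day 2, and 24 and 11 at day 4 against day 0. The median log2 difference at day 2 against day 0, 0.47, was 0.61 and 0.31 with pseudocounts of 0.1 and 5 CPM, 0.58 with a minimum of 5 CPM and 0.35 on FPKM. That at day 4 against day 0, 0.61, was 0.46 with a pseudocount of 5 CPM and 0.75 with a minimum of 5 CPM. Over all genes, 712 and 297 were higher and lower at day 2 against day 0, 1087 and 676 with a pseudocount of 0.1 CPM and 362 and 112 with 5 CPM. At day 4 against day 2 these were 357 and 215, 704 and 470, and 142 and 82, and at day 4 against day 0 981 and 538, 1492 and 930, and 504 and 223. On deposited FPKM the counts over all genes were lower too. They were 492 and 232 at day 2 against day 0, 269 and 179 at day 4 against day 2, and 705 and 400 at day 4 against day 0. Of the 159 log2 differences of named members, all kept their direction and side of 4-fold with median-of-ratios factors, 158 with library totals alone, 153 and 144 with pseudocounts of 0.1 and 5 CPM and 143 on FPKM. The causes were not tested. At about 0.2 CPM per count, members of under 1 CPM rest on 5 counts or fewer, and the spread between cultures is unknown.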
